A study of Danio rerio with 15 samples.

Results

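In ventricles of adult zebrafish recovering from anaemia, 55 genes had their highest group mean 9 days after the end of treatment, above each of the other 4 groups by at least 0.5 on the log2 scale. They were chosen from 19260 genes with a symbol of their own on the array, of which 11355 had a mean of at least 5 over the 15 arrays, the minimum for a member, so that the set makes up 0.484% of these. The group means of the 9 days arrays and of the other arrays made the choice. For the 55 members, every difference between 9 days and another group is therefore given below as a description without a test. The difference between the 9 days mean and the highest of the other group means is called the margin.

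Each of the 15 arrays held the RNA of 3 pooled ventricles, with 3 arrays per group. To model heart failure, the fish were made anaemic with phenylhydrazine, which lyses erythrocytes, dissolved in their water for 30 min at intervals of 3 days over 5 weeks. Its concentration began at 1.25 µg/mL and was raised to 2.5 µg/mL after the first week. The groups were control fish taken through the same baths without the compound, fish at the end of the 5 weeks, and fish kept without it for a further 2, 5 or 9 days. The labels give neither strain, sex nor hour of sampling, and a control was not sampled separately for each recovery time, so time without phenylhydrazine and sampling day cannot be told apart.

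The members are described below by what their proteins are known to do, mostly from mammals. Inhibitors of cyclin-dependent kinases hold cells out of division, proteins that bind the initiation factor eIF4E hold back translation, and the muscle ubiquitin ligase atrogin-1 marks proteins for degradation. Others are transcription factors that respond to glucocorticoid hormones or belong to the circadian clock, which is active in the heart as in other tissues.

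Margins ran from 0.50 (1.42-fold) to 1.99 (3.96-fold), with a median of 0.60 (1.52-fold). In 11 genes the margin was at least 0.7 and in 2 at least 1. The 5 members nearest the limit were fbxo33, kcng1, cyld3, stk35 and aamp, with margins from 0.511 down to 0.504, and the 5 genes just outside it were dcun1d4, thap1, tmem54a, actr3b and pim1, with margins from 0.494 down to 0.488. For 37 of the 55 the lowest 9 days array lay above all 12 arrays of the other groups, as it did for 1.87% of all genes and 2.88% of those with a mean of at least 5, and the rule itself favours such genes. For the other 18 the groups overlapped. Counts without overlap given below for members grouped by role are descriptions, to be read beside these shares. The median standard deviation at 9 days was 0.24. Control was the next highest group for 28 members, 2 days for 12, the end of treatment for 9 and 5 days for 6. In the same way, 380 genes were highest at the end of treatment by at least 0.5, 75 in control, 54 at 2 days and 6 at 5 days.

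Median signals of the 15 arrays lay between 4.022 and 4.095. All 7 cardiomyocyte markers were strongly present at 9 days, with means from 9.97 to 13.89. Their median difference from the control mean lay between -0.03 and 0.05 on the 9 days arrays, and limma called 1 of the 7, as higher. Single markers moved both ways between control and 9 days, with means of 9.30 and 9.97 for myh7 and 11.35 and 10.64 for myh6. Red cell markers stood 1.22 to 1.3 above control at 9 days, which was less than the 2.52 to 2.85 of the 2 days arrays, and macrophage markers stood 0.93 to 1.22 above control against 1.11 to 1.37 at the end of treatment. The median difference of the smooth muscle markers from control was -1.07 on the lowest 9 days array and -0.68 on the highest, with 3 of 6 lower by limma and 0 higher. On the 5 days arrays it was already -0.84 to -0.48. That of the epicardium and fibroblast markers was -0.65 to -0.23 at 9 days, with 4 of 8 lower and 0 higher. It was also below control before, at -0.42 to -0.15 when treatment ended, -0.64 to -0.13 at 2 days and -0.35 to -0.29 at 5 days. In whole ventricles fewer cells of a type and less RNA per cell cannot be told apart, and the part of these shifts in the values of the 55 genes was not tested.

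**Figure D1:**
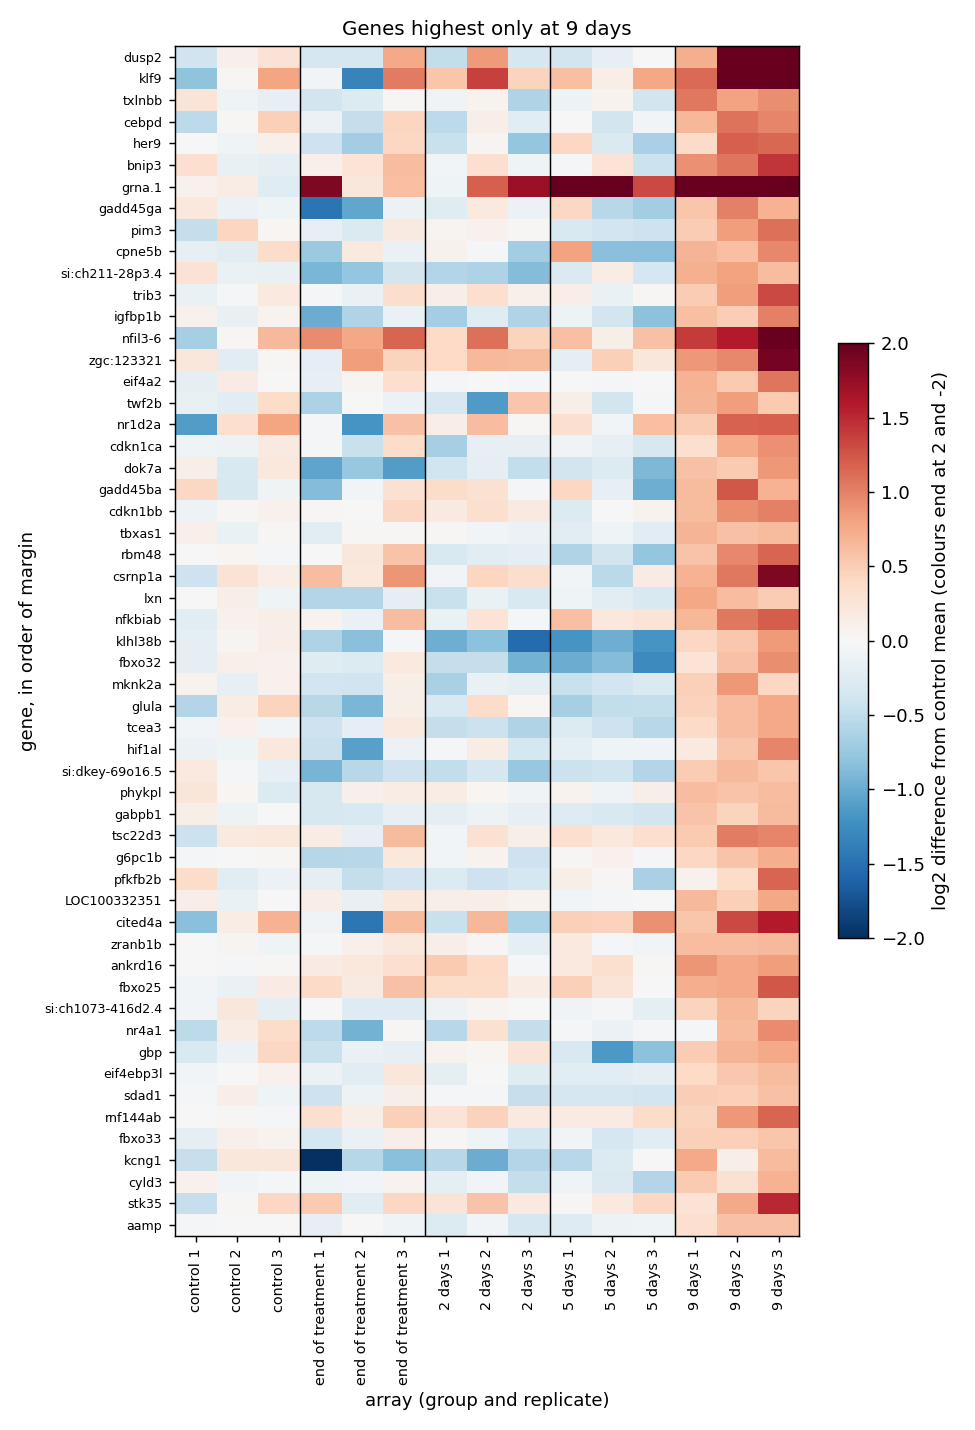
Each row is 1 of the 55 genes in order of margin and each column 1 of the 15 arrays; colour gives the log2 difference from the control mean of that gene, with colours ending at 2 and -2. The 3 columns of 9 days are red in nearly all rows, most deeply on replicate 3, while the other columns are mixed.

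Transcription factors and their partners formed the largest group by role, with 11 members. The gene klf9, a Krüppel-like factor induced by glucocorticoids in mammals, lies on chromosome 5 from 26675199 to 26678211 (assembly GRCz12tu). Its log2 values were 7.77, 8.60 and 9.37 in control, 8.52, 7.25 and 9.62 when treatment ended, 9.13, 9.95 and 9.02 at 2 days, 9.18, 8.71 and 9.35 at 5 days, and 9.72, 10.61 and 10.91 at 9 days. The 9 days arrays were the 3 highest but for 2 days replicate 2, which exceeded the lowest of them, and control and end of treatment arrays were widely spread. The 9 days mean was 10.41 ± 0.62 (SD, n = 3) and the margin 1.05 (2.07-fold), while against control the difference was 1.84 (3.57-fold).

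The gene cebpd, for a C/EBP family factor of the acute phase response, had values of 8.70, 9.25 and 9.70 in control, 9.11, 8.75 and 9.65 when treatment ended, 8.69, 9.35 and 9.01 at 2 days, 9.22, 8.86 and 9.16 at 5 days, and 9.89, 10.31 and 10.20 at 9 days. All 3 arrays of 9 days were above the other 12, by at least 0.18, and the margin was 0.91 (1.88-fold). For nfil3-6, of the family of the NFIL3 repressor that opposes D-box activators of the clock, 9 days gave 11.23, 11.42 and 11.80. Control gave 9.16, 9.86 and 10.48, the end of treatment averaged 10.80 ± 0.20 (SD, n = 3), and all 3 other treated groups had means above that of control. Its relation nr1d2a in clock output, a Rev-erb nuclear receptor that represses transcription, reached 9.31, 9.99 and 10.01 at 9 days, with 7.70, 9.14 and 9.60 in control, so these groups overlapped.

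A further 3 factors overlapped in the same manner. The p300-binding co-regulator gene cited4a had 10.48, 11.24 and 11.51 at 9 days against 10.40, 10.38 and 10.84 at 5 days. For nr4a1, an orphan nuclear receptor induced early by many stimuli, 9 days gave 9.20, 9.87 and 10.18 and control 8.71, 9.38 and 9.60. The gene tsc22d3, which encodes the glucocorticoid-induced leucine zipper protein, had 10.13, 10.63 and 10.58 against 9.76, 9.45 and 10.25 at the end of treatment. Overlap was slight for her9, a hairy-related repressor, whose lowest 9 days array was 8.51 and whose highest other array was 8.55, with a margin of 0.91. Margins of hif1al, of the HIF alpha family of oxygen-regulated factors, csrnp1a, a nuclear protein gene of the immediate early type, and gabpb1, a subunit of the GA-binding protein, were 0.58, 0.63 and 0.55. Of the 11 genes, 3 did not overlap between 9 days and the other arrays: cebpd, nfil3-6 and gabpb1.

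Signalling genes held the largest margin of the set. The gene dusp2, for a phosphatase that switches off MAP kinases, lies on chromosome 8 from 49070079 to 49074059. It had 4.63, 5.13 and 5.32 in control, 4.69, 4.70 and 5.79 when treatment ended, 4.54, 5.88 and 4.70 at 2 days, 4.66, 4.86 and 5.02 at 5 days, and 5.75, 7.29 and 8.09 at 9 days. The margin of 1.99 came with the widest spread of any member at 9 days (SD 1.19), and 9 days replicate 1 was below 2 arrays of other groups. The other group means of dusp2 were 5.03 in control, 5.06 when treatment ended, 5.04 at 2 days and 4.85 at 5 days. Without its 9 days arrays it would have missed the minimum mean of 5 for a member. For the kinase gene pim3, 9 days gave 7.87, 8.20 and 8.47 and the highest other array 7.80. The gene trib3, a pseudokinase of the stress response that binds Akt in mammals, averaged 9.56 ± 0.41 (SD, n = 3) at 9 days, with its lowest array at 9.18 against at most 9.03 elsewhere. For nfkbiab, an inhibitor that keeps NF-kappa B in the cytoplasm, 9 days gave 9.55, 9.95 and 10.10 and the highest other array 9.50.

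The gene igfbp1b, which encodes a secreted protein that binds insulin-like growth factors, had means below that of control in the 3 other treated groups and above it at 9 days. Its values were 6.87, 6.64 and 6.86 in control, 5.79, 6.19 and 6.65 when treatment ended, 6.11, 6.54 and 6.19 at 2 days, 6.69, 6.42 and 5.97 at 5 days, and 7.39, 7.28 and 7.79 at 9 days. The 3 arrays of 9 days were clear of all others by at least 0.40. The remaining signalling members were dok7a, an adaptor of the muscle kinase MuSK (margin 0.66), gbp, a protein that binds glycogen synthase kinase 3 (0.52), and the kinase gene stk35 (0.51).

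Brakes on the cell cycle made up 4 members, with margins of 0.63 to 0.76, and 3 of them did not overlap. The cyclin-dependent kinase inhibitor gene cdkn1bb, of the p27 type, lies on chromosome 25 from 2742152 to 2746956. It had 7.65, 7.78 and 7.83 in control, 7.78, 7.74 and 8.17 when treatment ended, 7.93, 8.07 and 7.93 at 2 days, 7.48, 7.76 and 7.82 at 5 days, and 8.38, 8.68 and 8.76 at 9 days. A second transcript cluster of cdkn1bb, which the choice of members did not use, had a margin of 0.57 on the same arrays. For cdkn1ca, of the p57 type, 9 days gave 6.26, 6.66 and 6.84, the first of which was below end of treatment replicate 3 at 6.29. The growth arrest genes gadd45ga and gadd45ba reached 9.90, 10.35 and 10.04, and 9.39, 9.99 and 9.45. Their highest other arrays were 9.75 and 9.16, so neither overlapped.

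Genes of protein turnover numbered 7 and had small margins, from 0.51 to 0.60. Of these, 6 did not overlap, which the rule favours, and 0 met the rule in all 15 repeats with an array left out. The atrogin-1 gene fbxo32 had 9.29, 9.59 and 9.58 in control, 9.24, 9.22 and 9.69 when treatment ended, 9.02, 9.02 and 8.55 at 2 days, 8.50, 8.63 and 8.22 at 5 days, and 9.77, 10.07 and 10.42 at 9 days. Values of fbxo32 were thus lowest at 5 days, below every control array, and highest at 9 days, with a group mean of 10.09 ± 0.33 (SD, n = 3). Its neighbour klhl38b, a kelch-like gene, had 7.35, 7.61 and 7.69 in control, 6.93, 6.72 and 7.51 when treatment ended, 6.57, 6.73 and 6.01 at 2 days, 6.37, 6.57 and 6.37 at 5 days, and 7.97, 8.09 and 8.40 at 9 days. On chromosome 16, klhl38b (26540941 to 26547444) and fbxo32 (26554828 to 26568136) are 7384 bases apart.

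The other members of that group were the F-box genes fbxo25 and fbxo33, the ubiquitin ligase gene rnf144ab, and zranb1b and cyld3, both of deubiquitinase families. At 9 days zranb1b had 9.57, 9.58 and 9.61, the closest agreement between arrays along with phykpl at 7.35, 7.31 and 7.36. Among other neighbouring members, fbxo33 and nfkbiab on chromosome 17 are 85422 bases apart and grna.1 and rbm48 on chromosome 19 are 4035 bases apart. In all, members lay on 23 chromosomes.

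Control of translation was represented by 3 genes, none of which overlapped. The gene eif4ebp3l, for a protein that binds the cap-binding factor eIF4E, had 10.62, 10.67 and 10.76 in control, 10.56, 10.45 and 10.90 when treatment ended, 10.49, 10.67 and 10.43 at 2 days, 10.45, 10.46 and 10.50 at 5 days, and 11.08, 11.22 and 11.31 at 9 days. The RNA helicase gene eif4a2 reached 8.08, 7.91 and 8.46 at 9 days, above the highest other array at 7.72. For mknk2a, a kinase that phosphorylates eIF4E, 9 days gave 7.04, 7.43 and 6.99 against at most 6.68 elsewhere.

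Metabolic enzymes numbered 5, with margins of 0.54 to 0.63. The glucose-6-phosphatase gene g6pc1b, whose enzyme releases free glucose, had 10.75, 10.91 and 11.07 at 9 days and at most 10.55 on other arrays. For tbxas1, the thromboxane synthase gene, 9 days gave 7.86, 7.76 and 7.81, at least 0.48 above every other array. The glutamine synthetase gene glula reached 6.96, 7.11 and 7.26, close above control replicate 3 at 6.94. Overlap was seen for pfkfb2b, whose enzyme sets the level of the glycolysis regulator fructose 2,6-bisphosphate, with 5.35, 5.64 and 6.44 against 5.63, 5.04 and 5.16 in control.

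Among the 12 members with other roles, txlnbb, of the taxilin family, had 10.13, 9.78 and 9.71 in control, 9.51, 9.60 and 9.89 when treatment ended, 9.80, 9.94 and 9.27 at 2 days, 9.77, 9.94 and 9.50 at 5 days, and 10.92, 10.67 and 10.80 at 9 days. The 9 days arrays cleared all others by at least 0.54, the widest gap of any member, with a margin of 0.92 (1.90-fold). For bnip3, a mitochondrial receptor of mitophagy that low oxygen induces in mammals, 9 days gave 9.45, 9.60 and 9.96, and the next highest group was the end of treatment with 8.63, 8.80 and 9.14. The granulin gene grna.1, known as grn1 and listed here with macrophage genes, had 5.57, 5.64 and 5.25 in control, 7.36, 5.72 and 6.09 when treatment ended, 5.40, 6.69 and 7.21 at 2 days, 7.64, 8.07 and 6.81 at 5 days, and 7.54, 8.45 and 8.83 at 9 days. Its 9 days mean was 2.79 above control (6.90-fold) but overlapped with 5 days. Its relative grna.2, too dim for the rule at a mean of 3.03, had group means of 2.17 in control, 3.42 at the end of treatment, 2.40 at 2 days and 3.18 at 5 days. At 9 days grna.2 stood 1.83 ± 0.39 (SE) above control. It met the margin there, at 0.58, and was named after its values were seen, so this difference is given without a test. Whether the probes of the pair share signal was not tested.

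The remaining 9 of these were cpne5b (a copine, which binds membranes with calcium), twf2b (twinfilin, which binds actin monomers), rbm48 (an RNA-binding protein), lxn (latexin, an inhibitor of carboxypeptidases), tcea3 (of the transcription elongation factor TFIIS family), ankrd16, sdad1, kcng1 (a modifier subunit of potassium channels) and aamp. Their margins ran from 0.50 to 0.75. Another 5 members have placeholder symbols, with margins of 0.52 to 0.71, and none of these overlapped.

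**Figure D2:**
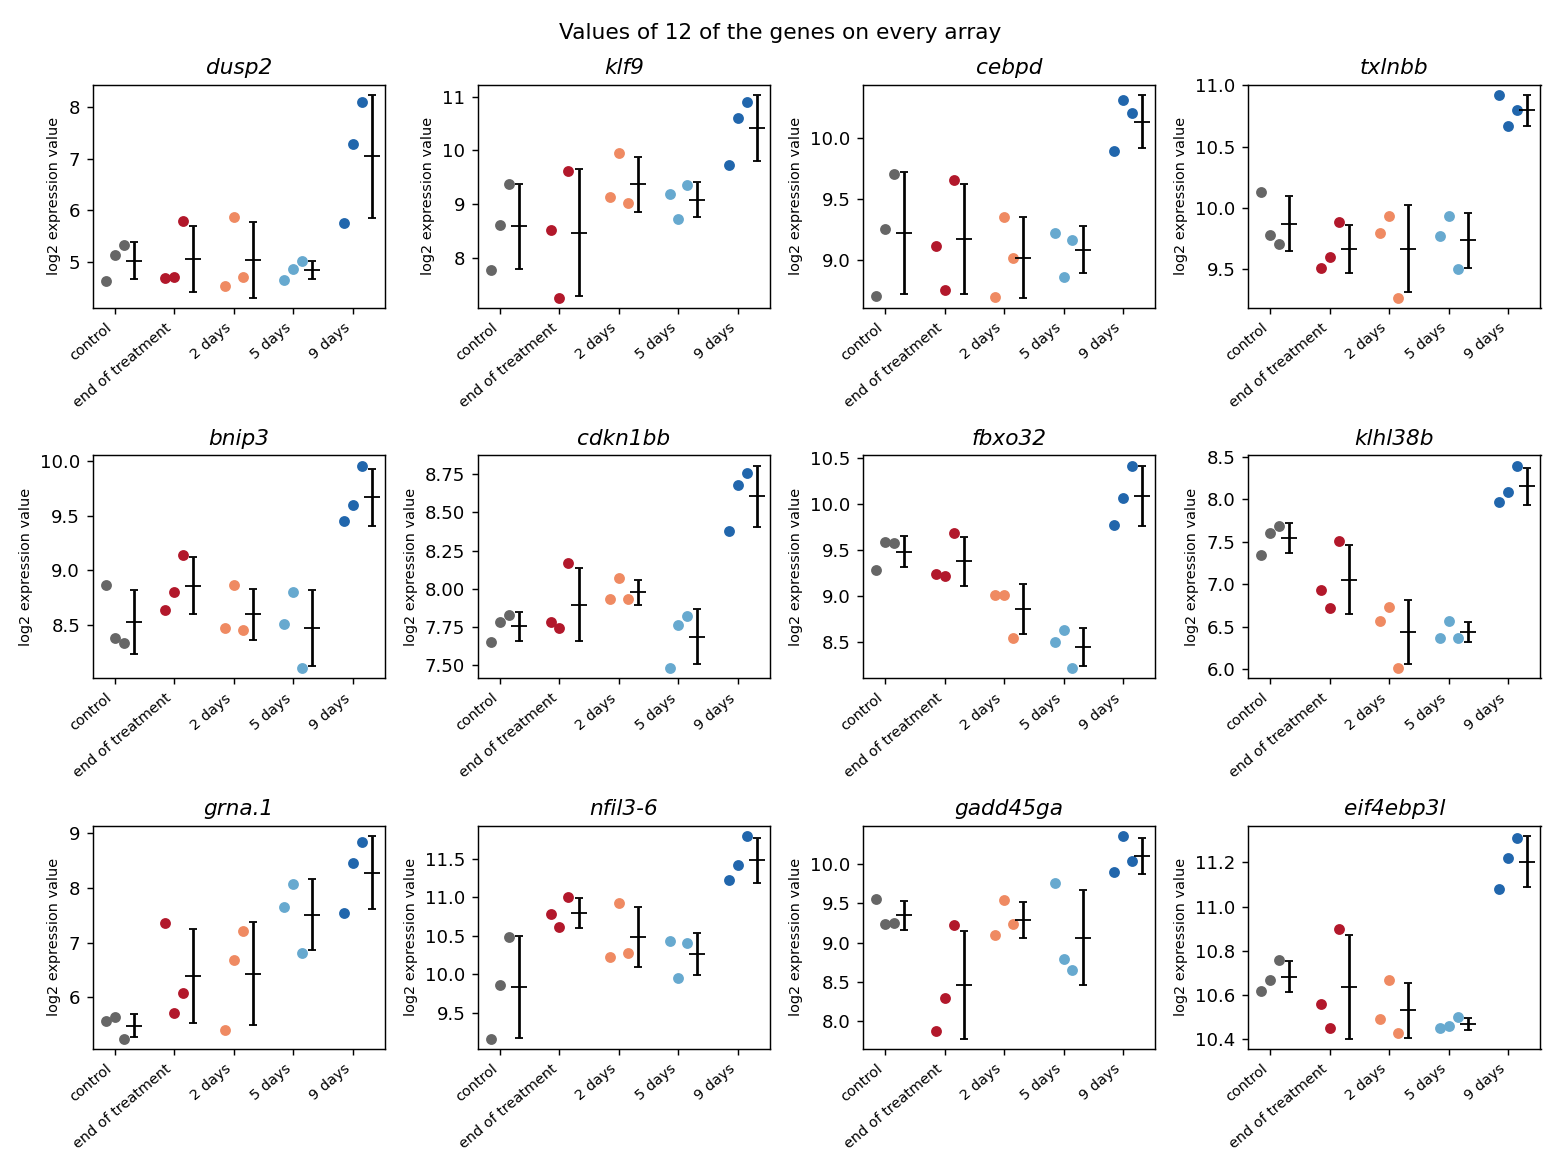
Points are the log2 values of 12 members on each of the 15 arrays, by group, with the group mean (short line) and SD (bar) of 3 arrays beside them; axes differ between panels. For txlnbb, bnip3 and cdkn1bb the 9 days points are clear of all others, for klf9 and dusp2 the lowest 9 days point falls among them, and fbxo32 and klhl38b are low at 2 and 5 days before their 9 days values.

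Within the other 4 groups, of which the rule used only the means, the members were often highest on the same array. At the end of treatment replicate 3 was the highest of its group for 44 of the 55 genes (80%), compared with 38.8% of all genes with a mean of at least 5. At 2 days replicate 2 was the highest for 39 (70.9%), compared with 26.6% of all such genes. Both held together for 34 members (61.8%) and for 11.9% of those genes. In control the highest array was replicate 3 for 27 members, against 28.2% of all such genes, and 5 days showed the most even split, with 23, 16 and 16 members. Genes on the same arrays are not independent of each other, so these shares are descriptions and were not tested. At 9 days, whose arrays chose the members, replicate 3 was the highest for 39 and replicate 1 the lowest for 37. The median difference of the members from the control mean there was 0.57 on replicate 1, 0.74 on replicate 2 and 0.92 on replicate 3, and nothing is read from this order. The same median over all genes with a mean of at least 5 lay between -0.04 and 0.04 on every array.

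**Figure D3:**
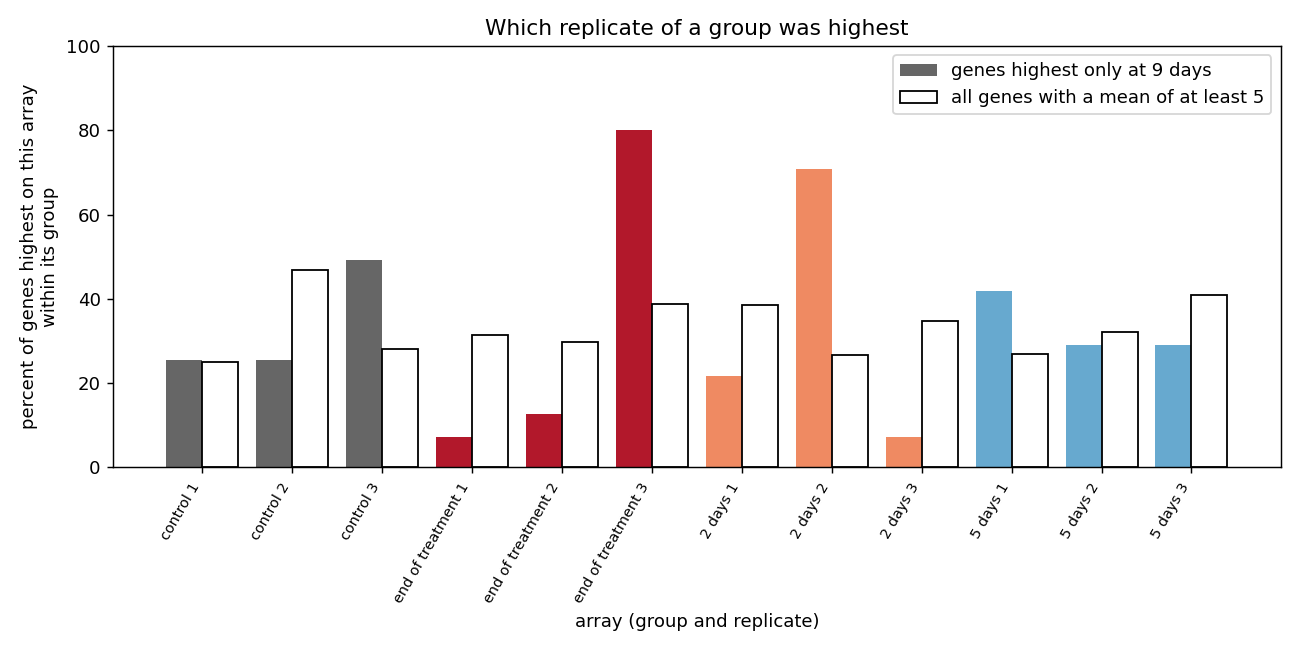
For each of the 12 arrays of the other groups, the filled bar gives the percent of the 55 members that were highest on it among the 3 arrays of its group, and the open bar the same percent for all genes with a mean of at least 5. Filled bars stand at 80% on end of treatment replicate 3 and at 70.9% on 2 days replicate 2, above the open bars of 38.8% and 26.6%.

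As a description, the choice was also repeated on part of the arrays. The rule was applied to the arrays of a pair of replicate numbers and read on the 5 arrays of the third, 1 per group. Each repeat chose its own genes, which are not the 55 members. Genes on the same arrays are not independent of each other, so the shares below were not tested. Without replicate 1 it chose 75 genes, of which 57 (76%) were highest at 9 days on the arrays left out, compared with 21.7% of all genes with a mean of at least 5. Without replicate 2 it chose 69 and 54 (78.3%) were highest, compared with 16.4%. Without replicate 3 it chose 56 and 42 (75%) were highest, compared with 18.6%. A margin of at least 0.5 was met again by 14, 21 and 21 of them (18.7%, 30.4% and 37.5%), compared with 0.617%, 0.618% and 1.2% of all such genes. The median margins on the arrays left out were 0.32, 0.36 and 0.40, smaller than in the choice. With each array left out in turn, 18 of the 55 genes met the rule every time, and 25 met it without each of the 9 days arrays. Leaving out 9 days replicate 1, the lowest for most members, raised the number of genes meeting the rule to 90, of which 53 were members, whereas leaving out 9 days replicate 3 gave 45, of which 29 were members.

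Differences among the other 4 groups were not set by the rule and were tested with limma, with p-values adjusted over all 19260 genes and a gene called at an adjusted p under 0.05. The rule still limits them, since a gene far above control at an earlier time had to be higher again at 9 days. Comparisons with control share its 3 arrays. At the end of treatment against control, 7 members fell and 1 rose, so that 14.5% were called, compared with 24.2% of all genes and 36% of those with a mean of at least 5. By direction, 14.6% of all genes rose and 9.6% fell, and 21.1% and 14.9% of those with a mean of at least 5. The median difference over the members was -0.11, against 0.02 over genes with a mean of at least 5. Leaving out control replicate 3 gave 5 calls and leaving out end of treatment replicate 3 gave 13.

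The rise was that of nfil3-6, by 0.97 ± 0.26 (SE, 1.95-fold; limma adjusted p = 0.0109), and it was 0.63 without control replicate 1 (adjusted p = 0.0671 by limma). The falls included dok7a (-0.98 ± 0.17, limma adjusted p = 0.000296), with control arrays at 7.93, 7.52 and 8.03 and treated ones at 6.76, 7.06 and 6.70, and lxn (-0.46 ± 0.11, limma adjusted p = 0.00624), with 9.17, 9.29 and 9.09 against 8.59, 8.59 and 8.99. For both genes the control and end of treatment arrays did not overlap and the call held whichever array was left out. The largest fall, that of kcng1 (-1.41 ± 0.41, limma adjusted p = 0.0168), rested in part on end of treatment replicate 1 at 4.47, without which it was -0.70 and still called. Its call was lost without control replicate 2 (-1.3) or control replicate 3 (-1.29). The falls of gadd45ga (-0.87 ± 0.29, limma adjusted p = 0.0347) and gabpb1 (-0.26 ± 0.08, limma adjusted p = 0.0276) were less stable. That of gadd45ga was lost without any control array or without end of treatment replicate 1 or 2, with values of -0.58 to -0.93. That of gabpb1 was lost without control replicate 1 or 3 or end of treatment replicate 1 or 2, with values of -0.20 to -0.26. A pair of placeholder genes also fell.

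At 2 days against control 5 members fell and 0 rose (9.09%, compared with 11.8% of all genes and 18% of those with a mean of at least 5). By direction, 7.62% of all genes rose and 4.15% fell at 2 days, and 11.5% and 6.51% of those with a mean of at least 5. At 5 days against control 6 members fell and 1 rose (12.7%, compared with 6.37% of all genes and 9.76% of those with a mean of at least 5). By direction, 3.9% of all genes rose and 2.47% fell at 5 days, and 5.77% and 3.99% of those with a mean of at least 5. At 2 days the count was 3 without control replicate 1, control replicate 2 or 2 days replicate 3. At 5 days it was 4 without control replicate 1, 2 without control replicate 3, and 3 without 5 days replicate 2 or 5 days replicate 3. The neighbours klhl38b and fbxo32 fell at both times. For klhl38b the difference was -1.12 ± 0.20 at 2 days (limma adjusted p = 0.00117) and -1.12 ± 0.20 at 5 days (limma adjusted p = 0.00239), a level 0.461 times that of control. For fbxo32 it was -0.63 ± 0.17 at 2 days (limma adjusted p = 0.0256), lost without control replicate 2 (-0.58), control replicate 3 (-0.58) or 2 days replicate 3 (-0.47), and -1.04 ± 0.17 at 5 days (0.487-fold, limma adjusted p = 0.00149). The calls of klhl38b at both times and of fbxo32 at 5 days held whichever array was left out.

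Other falls were tcea3 at 2 days (-0.50 ± 0.13, limma adjusted p = 0.0221) and, at 5 days, gbp (-0.76 ± 0.20, limma adjusted p = 0.0288) and rbm48 (-0.58 ± 0.15, limma adjusted p = 0.025). The gene gabpb1 fell again at 5 days (-0.31 ± 0.08, limma adjusted p = 0.0321). The call of tcea3 was lost without control replicate 2 (-0.45) or 2 days replicate 3 (-0.44), and that of gbp without control replicate 3 (-0.56), 5 days replicate 2 (-0.57) or 5 days replicate 3 (-0.73). That of rbm48 was lost without any control array or without 5 days replicate 1 or 3 (-0.49 to -0.61), and that of gabpb1 without control replicate 1 or 3 or 5 days replicate 2 or 3 (-0.25 to -0.31). A placeholder gene also fell at 5 days, a call that held in only 4 of the 15 repeats with an array left out. A pair of them fell at 2 days, with calls that held in 13 and 14 of the 15. The rise at 5 days was that of grna.1, by 2.02 ± 0.46 (4.06-fold, limma adjusted p = 0.0138), lost without control replicate 3 (1.90) or 5 days replicate 2 (1.74).

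From the end of treatment to 5 days 3 members fell and 1 rose (7.27%, compared with 12.3% of all genes and 18.9% of those with a mean of at least 5), a count that was 2 without 5 days replicate 2. Without end of treatment replicate 3 it was 6, of which 4 rose and 2 fell, so the balance of directions rested on that array. By direction, 4.34% of all genes rose and 8.01% fell, and 6.68% and 12.2% of those with a mean of at least 5. The gene fbxo32 fell by 0.93 ± 0.17 (limma adjusted p = 0.00169) and rbm48 by 0.85 ± 0.15 (limma adjusted p = 0.000972), whichever array was left out. For klhl38b the difference was -0.62 ± 0.20 (limma adjusted p = 0.049), a call that held in 4 of the 15 repeats with an array left out and was -0.39 without end of treatment replicate 3. The rise was that of a placeholder gene, a call that held in 12 of the 15 repeats. In the 4 comparisons together 14 members were called at least once and 41 (74.5%) in none, while 42.5% of all genes with a mean of at least 5 were called at least once.

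**Figure D4:**
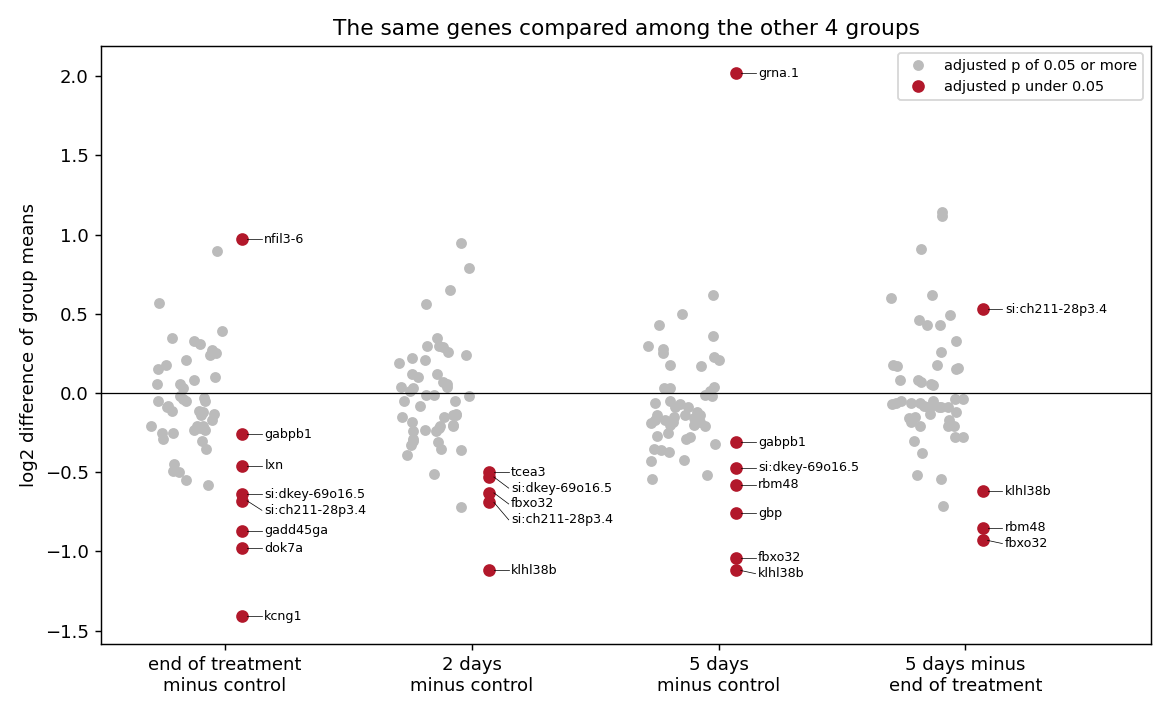
Each point is 1 of the 55 members, placed by its log2 difference between the groups named on the horizontal axis, with red and a name where limma's adjusted p was under 0.05. Most called members lie below 0, with klhl38b and fbxo32 low at both 2 and 5 days, and nfil3-6 and grna.1 are the called members above 0 against control.

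Other genes of the pathways named above were taken from gene lists and compared between 9 days and control, where limma called 7.54% of all genes, 4.24% higher and 3.3% lower, and 12.2% of those with a mean of at least 5, 6.83% higher and 5.32% lower. Of 15 measured genes of the glucocorticoid response list, klf9 and tsc22d3 were members. Of the other 13, ddit4, an inhibitor of mTOR signalling (2.11 ± 0.38, limma adjusted p = 0.00345), and the kinase gene sgk1 (0.75 ± 0.15, limma adjusted p = 0.0051) rose and 0 fell. Both already stood above control at the end of treatment, at 9.75 against 7.34 for ddit4 and 7.86 against 7.31 for sgk1. The co-chaperone gene fkbp5 had group means of 10.04 in control, 10.66 at the end of treatment and 10.98 at 2 days. They were 11.20 at 5 days and 11.56 at 9 days. Its arrays were widely spread, at 8.82, 10.26 and 11.05 in control and 11.01, 9.60 and 11.38 at the end of treatment. The difference of fkbp5 between 9 days and control, 1.52 ± 0.46, did not pass (limma adjusted p = 0.0538).

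Of 20 clock output genes, nfil3-6 and nr1d2a were members, 3 of the other 18 rose and 1 fell. The rises were those of tefa (0.64 ± 0.10, limma adjusted p = 0.00104), nfil3-5 (0.84 ± 0.18, limma adjusted p = 0.0101) and ciarta (0.56 ± 0.12, limma adjusted p = 0.0108), and the fall that of hlfb (-0.71 ± 0.18, limma adjusted p = 0.024), whose signal was near 5. Means of tefa and nfil3-5 were higher at the end of treatment, at 9.41 and 5.78, than at 9 days, at 9.31 and 5.45. For ciarta they were 8.69 at the end of treatment and 9.45 at 9 days. Among immediate early genes nr4a1 and csrnp1a were members, while 1 of the other 34 rose and 5 fell, including klf4 (-1.45 ± 0.17, limma adjusted p = 0.000167) and egr1 (-0.82 ± 0.18, limma adjusted p = 0.013). In the growth hormone and IGF list, igfbp1b and fbxo32 were members and 1 of the other 33 rose. Beside her9, 4 of the other 82 genes of the TGF-beta, BMP, Wnt and Notch list rose and 5 fell. Beside nfkbiab, 3 of the other 40 genes of the chemokine and inflammation list rose and 0 fell. Beside trib3, 3 of the other 28 genes of the unfolded protein and stress response list rose and 0 fell. The cell cycle list held 0 members, and of its 41 measured genes 0 rose and 0 fell. Of the other 25 macrophage genes measured beside grna.1, 12 rose and 0 fell. The rises include grna.2, which met the margin at 9 days but was too dim for the rule, so this count is a description. Of the 25 genes, 1 of those with a mean of at least 5 had its highest group mean at 9 days. The same held for 7 other genes of the glucocorticoid list, 3 of clock output, 9 of the immediate early list and 6 of the IGF list. Genes with such a mean numbered 13, 17, 27 and 27 on these lists, each including 2 members, and 20 on the macrophage list, including 1 member. The counts highest at 9 days leave these members out. Among all genes with a mean of at least 5 the share was 18.5%, and the differences were not tested.

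Close relatives of the members were gathered by name after the members were known, 54 genes in all, of which 44 had a mean of at least 5. Of these 44, 10 (22.7%) had their highest group mean at 9 days by at least 0.01, compared with 18.5% of all genes with a mean of at least 5. Against control at 9 days 9 (20.5%) rose and 0 fell, compared with 6.83% and 5.32% of those genes. The 9 include pim1, whose place next to the limit rests on that same difference, and the relatives were named after their values were seen. These shares are therefore descriptions and were not tested. The gene igfbp1a had group means of 8.20, 9.92, 9.68, 9.54 and 9.58 from control to 9 days, so it was high throughout and not highest at 9 days, unlike igfbp1b. Of the other relatives counted as rising, nfil3-5, bnip3lb, cebpb and cited1 also had higher means at the end of treatment than at 9 days. For klhl38a, glulb, cebpg and pim1 the 9 days mean was the higher of these. The gene nfil3 rose at the end of treatment (1.87 ± 0.24, limma adjusted p = 1.92e-05) and stood at -0.22 ± 0.24 at 9 days, where nfil3-6 was at its highest. Similarly, gadd45aa rose at the end of treatment (1.18 ± 0.19, limma adjusted p = 0.000229) and gadd45ga fell.

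The p27-type gene cdkn1ba had 9.28 in control, 8.71 at the end of treatment and 9.10 at 9 days, without the 9 days peak of cdkn1bb. The atrophy-related ligase genes trim63a and trim63b, often read beside fbxo32, differed from control at 9 days by -0.02 ± 0.12 and -0.19 ± 0.11, and neither passed. The kelch-like gene klhl38a rose at 9 days (1.18 ± 0.30, limma adjusted p = 0.0239) and at the end of treatment (0.91 ± 0.30, limma adjusted p = 0.0348). The glutamine synthetase gene glulb rose at 9 days (1.66 ± 0.25, limma adjusted p = 0.00123) as it had at the end of treatment (1.26 ± 0.25, limma adjusted p = 0.00138). Like the other relatives, klhl38a and glulb were named after their values were seen, so their p-values are descriptive. For pim1, just outside the rule, the mean was 11.34 at 9 days and 10.86 in control, its next highest group. That same difference placed it next to the limit, so it is given without a test. It is 1 of the 9 relatives counted above as rising.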

How the data were processed

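The deposited values are log2 expression values that the authors made with RMA in the R package oligo, per the submitters' processing notes. RMA as usually run includes quantile normalization, which makes the distributions of the arrays alike. The sources used here do not give its version or summary level, and without detection values signal over background is unknown. RNA (250 ng per array, per the labels) came from separate pools of ventricles.

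Of 75212 transcript clusters, 20806 had exactly 1 symbol in the platform annotation, and 20323 of these matched a gene ID of assembly GRCz12tu. The cluster with the highest mean stood for each of 19260 genes, 1365 of which had several clusters. Group means were fitted over 15 arrays with limma 3.58.1 in R 4.3.3 (intensity trend, 2-sided, Benjamini-Hochberg, threshold 0.05), and the code was tested on simulated data. With 3 arrays per group an exact permutation cannot go below p = 0.1, so calls rest on limma's variance model and precision is limited by the number of arrays. Figures were drawn with matplotlib 3.10.9 from tables made in pandas 2.3.3 (Python 3.11.15).

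The members and gene lists were chosen with earlier results of these data known. Members were named if among the 25 with the largest margin or the 10 with the highest 9 days mean, on a list, among up to 10 called per direction, within 100 kb of another member or next to the limit, and placeholder symbols were counted only; the other members and the relatives were named after their values were seen. Gene lists were matched through older symbols where 1 gene held them. The comparison of 9 days with control, for genes outside the set, was added after seeing the data. Alternatives were other variance models, normalizations, filters, gene summaries, thresholds, array weights, a replicate block and leaving out each array. Promoter and protein sequences were not used here.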

Additional observations from a re-analysis of the deposited data

Results flagged for a closer look

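Among transcript clusters that do not carry exactly 1 gene symbol, which the comparisons above do not use, 78 met the same rule, out of 14309 with a mean of at least 5 (0.545%). They came to attention as a signal in clusters not used for the named genes, above the level in control. The identifying numbers of some follow directly on those of member clusters, as for gadd45ga and gadd45ba. Whether such clusters belong to the same genes was not tested. For 44 of them the lowest 9 days array lay above all 12 other arrays, which the rule itself favours. That share over all 14309 clusters is not given here, and clusters with the same values were counted separately. The 44 are therefore only a description. Of the 78, 20 fell into 6 sets whose clusters had the same values to 2 decimals on all 15 arrays, the largest with 8 clusters at a mean of 6.22 at 9 days and 5.52 in control. The 78 clusters thus held 64 different sets of values.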

How the results depend on the processing

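The number of genes meeting the rule was 55, and 109, 11 and 2 with a margin of 0.4, 0.7 and 1. It was 45 to 90 when an array was left out, and between 50 and 65 under the other settings. These were a minimum mean of 4 or 6, arrays centred on their median, cyclic loess, the mean of a gene's clusters and group medians. A replicate block also gave 55, but it could not change the group means, since every group held 1 array of each replicate number. Medians in place of means kept 39 of the 55. Called members numbered 5 to 13 at the end of treatment, 3 to 6 at 2 days, 2 to 8 at 5 days and 2 to 6 from the end of treatment to 5 days with an array left out. With only the 6 arrays compared, 8 were called at 2 days and 4 at 5 days, and without a variance trend 2 from the end of treatment to 5 days. With the replicate number as a block the counts were 7, 5, 6 and 3. Same-numbered arrays showed no pairing, with median correlations of deviations of 0.02, 0.01 and -0.05. Neither a called difference nor a margin of a member changed sign under the settings run, which did not cover differences that were not called. The called differences kept the call in 490 repeats and lost it in 86; the cause was not tested.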

Other observations

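With the rule turned downward, 67 genes with a mean of at least 5 had their lowest group mean at 9 days by at least 0.5, compared with 8 at 5 days, 9 at 2 days, 175 at the end of treatment and 221 in control. A further 11 genes met the margin upward at 9 days with a mean under 5 and were left out by the rule. No core clock gene was a member, but of 20 measured 6 rose at 9 days against control and 0 fell. Of all genes 4.24% rose and 3.3% fell, and of those with a mean of at least 5, 6.83% and 5.32%. Values of these clock genes at the other times are not given here, and the labels do not give the hour of sampling.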
